A study of Mus musculus with 6 samples.

Results

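Axonemal dyneins are the motors that bend the sperm tail. Footprints of ribosomes on the genes for these motors, for the proteins that anchor and space them on the flagellar microtubules, and for the cytoplasmic factors that preassemble them were read in mouse round spermatids. The members were chosen by name, with 49 names in the rule, and 44 of the 22770 gene rows of the table carried one of them. Dnaic1 and Dnaic2 stood for the newer names Dnai1 and Dnai2, and no value is given here for Dnah11, Dnaaf4 or Gas8. The 44 rows comprised 4 outer arm heavy chains, 10 inner arm heavy chains, 8 intermediate and light chains, 11 assembly factors, 4 outer arm docking proteins, 2 proteins of the axonemal ruler and 5 subunits of the dynein regulatory complex.

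The samples were 3 wild-type and 3 Eif5a SKO libraries of round spermatids, the haploid cells that begin to build a flagellum after meiosis. EIF5A is the hypusine-carrying translation factor that helps ribosomes through difficult stretches of coding sequence. The labels do not spell out SKO, and the table's columns call the genotype cKO. The sources used here do not give strain, age or the driver of any Cre. The series design text, written for an accessibility assay, describes cells sorted from 3 mice per group. The comparison asks which of these genes carried more or fewer footprints when Eif5a was targeted. Levels are in FPKM, a footprint density scaled to transcript length and library total, so they can be set side by side between genes. Such a density reflects mRNA amount, the rate of initiation and ribosome speed together. In these bulk libraries fewer cells of a type and less RNA per cell cannot be told apart.

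A sperm tail carries outer arm dyneins, which mainly set beat frequency, and several kinds of inner arm dyneins, which shape the waveform. Each arm holds heavy chains, the very large ATP-driven motors, together with intermediate and light chains that join and regulate them. Arms are put together in the cytoplasm by dedicated assembly factors, carried into the flagellum, and set at regular places by the outer arm docking complex, by a ruler of paired coiled-coil proteins and by the dynein regulatory complex. Loss of these proteins is known as a cause of immotile sperm and cilia.

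Eif5a itself had 34.2, 48.8 and 61.9 FPKM in wild type against 1.84, 1.93 and 2.99 FPKM in SKO, so the groups did not overlap. Its log2 fold change was -3.90 (SE 0.37, limma adjusted p = 0.00641), and the two-sided exact permutation p was 0.1, the smallest that 20 assignments allow. The libraries differed in composition, with protein-coding rows holding 18.3% to 33.1% of the summed FPKM. Absolute depth is unknown. Relative depths read from the steps between low values ran from 0.503 (SKO replicate 2) to 1 (SKO replicate 1). All log2 fold changes below are SKO minus wild type on the log2(FPKM + 1) scale, which understates the change of low genes. They are given for the deposited values and, as scaled values, after TMM-type scaling (a factor per library from a trimmed mean of log ratios). The factors ran from 0.812 to 1.31. The median over all 15578 tested rows was 0.13 with the deposited values and 0.0028 after scaling.

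Round spermatid markers were present in every library, and their summed density was 936 to 1771 FPKM in wild type against 1379 to 2996 FPKM in SKO. All 13 of their markers had a log2 fold change above 0, as did 9251 of all 15578 tested rows. After scaling 12 markers stayed above 0, beside 7817 of all rows. Tex33 passed the test after scaling (limma adjusted p = 0.0186), where 0.764% of all rows were called higher. Leydig cell markers, 7 tested, summed to 13.6 to 18.6 FPKM in wild type against 61.2 to 118 FPKM in SKO. Sertoli cell markers, 7 tested, summed to 17.9 to 26.7 and 62.8 to 86.1 FPKM, and peritubular markers, 4 tested, to 4.54 to 6.19 and 25.8 to 39.2 FPKM. Dcn of the peritubular list passed the test with the deposited values (limma adjusted p = 0.0470) and after scaling. Clu of the Sertoli list and Acta2 of the peritubular list passed after scaling only. All were higher in SKO. Over all rows, 0.109% were called higher with the deposited values and 0.764% after scaling. Spermatocyte markers summed to 108 to 215 FPKM in wild type against 145 to 230 FPKM in SKO, elongating spermatid markers to 255 to 387 and 322 to 519 FPKM, and macrophage and endothelial markers to 4.03 to 7.70 and 2.08 to 9.30 FPKM. Odf2 alone made up 106 to 169 and 139 to 267 FPKM of the elongating spermatid sums. After scaling 9 spermatocyte markers lay above 0 and 3 below. Of the elongating spermatid markers 8 lay above 0 and 5 below, among the latter Prm1, Prm2 and Tnp1. The multiciliated epithelium list, whose defining genes share the axonemal programme, had 7 rows, of which 5 were tested. The 7 rows summed to 77.6 to 118 FPKM in wild type against 117 to 219 FPKM in SKO. Fam183b alone had 34.7 to 74.2 FPKM in wild type against 75.9 to 150 FPKM in SKO. After scaling 2 of the 5 had log2 fold changes above 0, Fam183b at 1.02 and Foxj1 at 0.23. The 3 below 0 were Deup1 at -0.00021, Cdhr4 at -0.17 and Cdc20b at -1.01. Foxj1, the defining regulator, lay between 2.26 and 4.39 FPKM in all libraries, and Tmem212 was listed at 0 in SKO replicate 3. The part of these markers in the results below was not tested.

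The members ranged widely in density. The highest wild-type means were those of Dnah8, at 154 ± 39.6 FPKM (SD, n = 3), and Armc4, at 150 ± 37.5 FPKM (SD, n = 3). They were followed by Ccdc39, Dynlrb2 and Drc1, at 116, 115 and 114 FPKM, and the ranges of these 5 genes in wild type overlapped. The lowest were Dnah9 at 2.23 ± 1.93 FPKM (SD, n = 3) and Dnah5 at 0.357 ± 0.158 FPKM (SD, n = 3). Dnah5, the outer arm heavy chain best known from respiratory cilia, was the 1 member below the mean of 1 FPKM required for testing, which left 43 tested members. The other members' wild-type means ran from 3.08 FPKM for Pih1d3 to 77.9 FPKM for Ccdc65. In SKO the order at the top was Dnah8, Dynlrb2 and Drc1, and Armc4 stood in place 8.

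**Figure D1:**
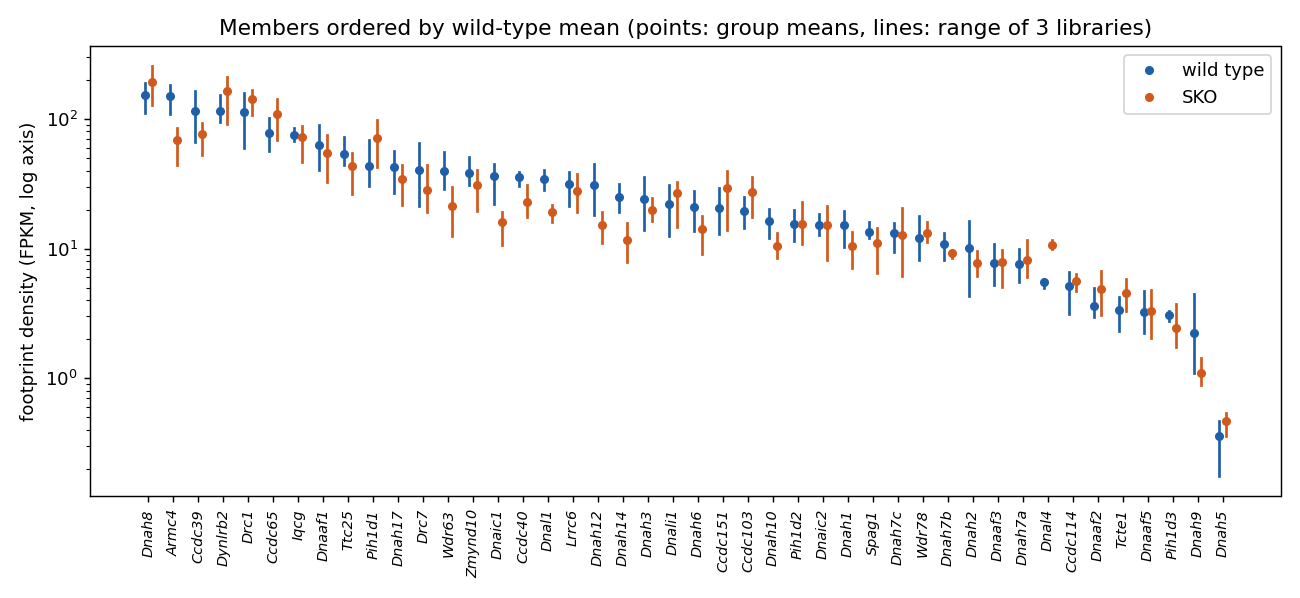
Footprint density (FPKM, log axis) of the 44 members, ordered by wild-type mean, with points for group means and lines for the range of the 3 libraries of each group. Dnah8 led in both groups, with means of 154 FPKM in wild type against 192 FPKM in SKO, while Armc4, second in wild type, had 150 and 69.2 FPKM.

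No member passed the test with the deposited values (limma, Benjamini-Hochberg over all tested rows, adjusted p from 0.359 to 0.991), against 0.109% of all tested rows called higher and 0.0193% called lower in SKO. At an unadjusted p under 0.05, 4 members were lower (Armc4, Dnaic1, Dnah14 and Dnal1) and 1 was higher (Dnal4). Those 4 are 9.3% of the tested members, against 2.83% of all rows, and the 1 is 2.33%, against 8.15%. After TMM-type scaling 1 member, Armc4, fell (adjusted p = 0.0473), where 0.257% of all rows were called lower and 0.764% higher. At an unadjusted p under 0.05 after scaling, 11 members were lower and 1 higher (25.6% and 2.33%, against 6.71% and 8.9% of all rows).

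The members lay mostly below the rest of the table. Of the 43 tested, 30 had a log2 fold change below the median of all tested rows, and the members' median was 0.32 below it (-0.32). After scaling the members' median was -0.34, with single genes from -1.30 for Armc4 to 0.70 for Dnal4. In 15 members every wild-type value lay above every SKO value after scaling, 34.9% of those tested, against 9.85% of all rows. The reverse held for Dnal4 alone, 2.33%, against 11.6% of all rows. With the deposited values these numbers were 4 members (9.3%, against 4.78% of all rows) and 1 member (2.33%, against 10.9%). The members held 0.871%, 0.940% and 0.944% of the summed FPKM of protein-coding rows in wild type against 0.702%, 0.710% and 0.781% in SKO, without overlap. Their median log2 level minus that of protein-coding rows was 1.78, 2.18 and 2.57 in wild type against 1.51, 1.84 and 1.70 in SKO, so the groups overlapped.

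**Figure D2:**
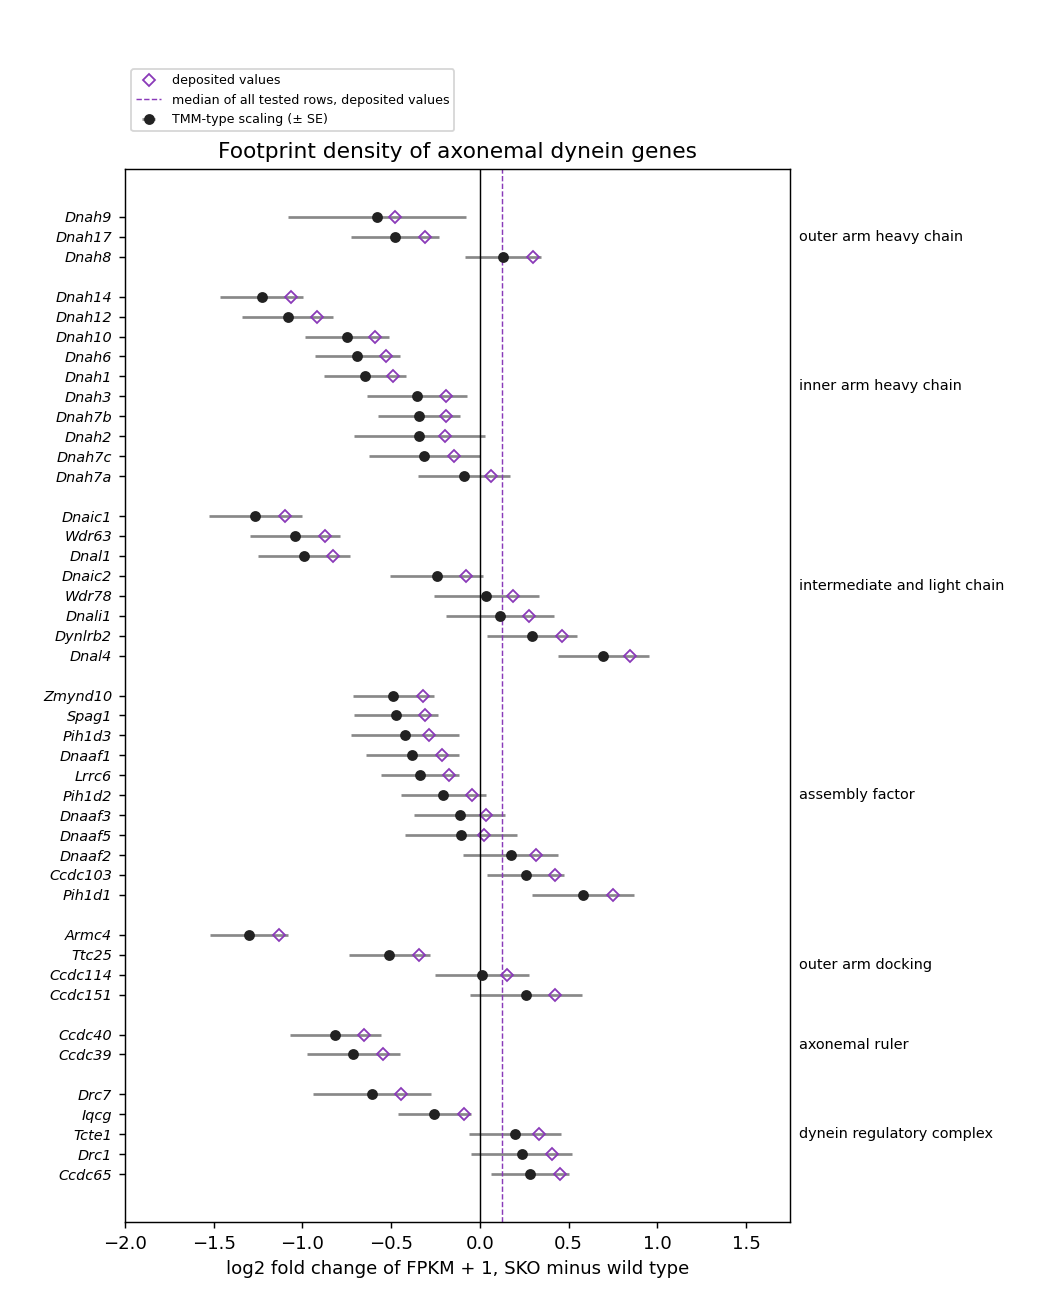
Log2 fold change (SKO minus wild type) of each tested member, grouped by role, with filled points and SE bars for the values after TMM-type scaling and open diamonds for the deposited values. All 10 inner arm heavy chains and both ruler genes lie left of 0 after scaling, while the other roles hold members on both sides.

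Among the outer arm motors, Dnah8 carried most of the footprints. It encodes the outer arm heavy chain used in sperm (identifier 13417, GRCm38 chromosome 17, 30626935 to 30875762). Its density was 111, 162 and 189 FPKM in wild type against 128, 254 and 194 FPKM in SKO, and the groups overlapped. The log2 fold change was 0.30 (SE 0.44, limma adjusted p = 0.859) and the scaled one 0.13, with a 95% interval of -0.37 to 0.63. The sign turned under quantile normalization, at -0.08. Dnah8 made up 77.7%, 77.7% and 76.5% of the summed outer arm heavy chain FPKM in wild type against 84.5%, 84.9% and 83.4% in SKO.

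Dnah17, the partner heavy chain of the outer arm in sperm, had 26.9, 45.0 and 56.6 FPKM in wild type against 21.7, 43.8 and 37.1 FPKM in SKO. Its scaled log2 fold change was -0.48 (limma adjusted p = 0.406), and its ratio to Dnah8 was 0.243, 0.278 and 0.2999 in wild type against 0.169, 0.173 and 0.192 in SKO. Dnah9, a heavy chain of motile cilia, was near the lowest testable level in 5 libraries, between 0.886 and 1.42 FPKM, and had 4.45 FPKM in wild-type replicate 1. Its scaled log2 fold change of -0.58 (limma adjusted p = 0.639) had a 95% interval of -1.74 to 0.58. Dnah5 had 0.469, 0.425 and 0.177 FPKM in wild type against 0.518, 0.362 and 0.537 FPKM in SKO.

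The inner arm heavy chains stood lower as a class in SKO, and none passed the test with the deposited or the TMM-scaled values. The 10 include the 3 copies of Dnah7, which may share reads. All 10 had a log2 fold change below the median of all rows (9 of 10 in some fits with 1 library left out), with a class median of 0.47 below it (-0.47) and a scaled class median of -0.50. With the deposited values the groups did not overlap in 1 of the 10, Dnah14 (10%, against 4.78% of all rows). After scaling they did not overlap in 6 (60%, against 9.85% of all rows), namely Dnah1, Dnah6, Dnah7b, Dnah10, Dnah12 and Dnah14. Their summed density was 120, 172 and 230 FPKM in wild type against 89.7, 153 and 116 FPKM in SKO.

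Dnah14 and Dnah12 had the lowest log2 fold changes of the class. Dnah14, counted with the inner arm chains by its sequence (identifier 240960, chromosome 1, 181576593 to 181814932), had 24.5, 19.1 and 31.6 FPKM in wild type against 7.88, 15.8 and 11.2 FPKM in SKO, with no overlap. Its log2 fold change was -1.07 (SE 0.39, limma adjusted p = 0.359), and -1.23 after scaling (adjusted p = 0.0650). Dnah12, a single-headed inner arm motor (identifier 110083, chromosome 14, 26691554 to 26892719), had 18.2, 29.5 and 44.7 FPKM in wild type against 11.1, 19.2 and 15.2 FPKM in SKO. The groups overlapped at 18.2 and 19.2 FPKM, and the log2 fold change was -0.92 (limma adjusted p = 0.476), or -1.08 after scaling (adjusted p = 0.103).

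Dnah10, which with Dnah2 forms the 2-headed inner arm motor, had 12.1, 20.2 and 16.7 FPKM in wild type against 8.50, 13.2 and 9.71 FPKM in SKO. Its scaled log2 fold change was -0.75 (95% interval -1.29 to -0.20, limma adjusted p = 0.183). Its partner Dnah2 had 4.30, 9.60 and 16.3 FPKM in wild type against 6.10, 7.59 and 9.56 FPKM in SKO, and its scaled interval, -1.19 to 0.51, included 0. Dnah1, an inner arm motor whose loss is known to give malformed sperm tails, had 10.3, 15.5 and 19.6 FPKM in wild type against 7.05, 13.5 and 10.9 FPKM in SKO. Its scaled log2 fold change was -0.65, and that of Dnah6 was -0.69 (limma adjusted p = 0.239 and 0.229).

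Dnah3, a single-headed motor, had the highest SKO mean of the class and overlapping groups, at 13.8, 23.0 and 35.8 FPKM in wild type against 18.7, 24.4 and 16.5 FPKM in SKO. The 3 copies of Dnah7, which are close in sequence and may share reads, ranged from 5.53 to 15.6 FPKM in wild type and from 6.06 to 20.4 FPKM in SKO. Dnah7a had 5.53, 7.57 and 9.88 FPKM in wild type against 6.72, 11.7 and 6.06 FPKM in SKO. Its log2 fold change was the highest of the class, at 0.06 with the deposited values and -0.09 after scaling.

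The intermediate and light chains differed among themselves. With the deposited values every SKO value lay below every wild-type value in Dnaic1 and Dnal1 (25% of the class, against 4.78% of all rows). Every SKO value lay above in Dnal4 (12.5%, against 10.9%). The groups overlapped in Wdr63, Dnaic2, Wdr78, Dnali1 and Dynlrb2. After scaling Wdr63 joined Dnaic1 and Dnal1 (37.5%, against 9.85% of all rows). The scaled class median was -0.10, and 4 of 8 members lay on each side of 0. Relative to all rows the median of the deposited values was -0.07, and it crossed 0 without wild-type replicate 3 (0.06) and without SKO replicate 1 (0.03).

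Dnaic1, an intermediate chain at the base of the outer arm (identifier 68922, chromosome 4, 41569647 to 41638158), had 21.9, 41.2 and 45.1 FPKM in wild type against 10.6, 18.4 and 19.1 FPKM in SKO. Every SKO value lay below every wild-type value. The log2 fold change was -1.10 (SE 0.43, limma adjusted p = 0.390), and -1.26 after scaling (adjusted p = 0.0765). Its outer arm partner Dnaic2 had 14.3, 12.8 and 18.4 FPKM in wild type against 8.14, 21.1 and 16.1 FPKM in SKO, with a scaled log2 fold change of -0.24 (95% interval -0.85 to 0.36). The ratio of Dnaic1 to Dnaic2 within a library was 1.53, 3.23 and 2.45 in wild type against 1.30, 0.872 and 1.18 in SKO.

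Wdr63 and Wdr78 encode intermediate chains of the 2-headed inner arm motor. Wdr63 had 29.0, 33.2 and 55.8 FPKM in wild type against 12.5, 30.1 and 21.6 FPKM in SKO, with 1 SKO value above the lowest wild-type value. Its scaled log2 fold change was -1.04 (limma adjusted p = 0.108), and after scaling the groups did not overlap. Wdr78 had 8.12, 10.1 and 17.8 FPKM in wild type against 12.4, 11.3 and 16.1 FPKM in SKO, with a scaled log2 fold change of 0.04 and a 95% interval of -0.65 to 0.73.

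The light chains Dnal1 and Dnal4 had log2 fold changes of opposite sign. Dnal1, which binds the outer arm heavy chain (identifier 105000, chromosome 12, 84114279 to 84143517), had 28.4, 35.3 and 40.2 FPKM in wild type against 19.3, 16.1 and 21.7 FPKM in SKO, with no overlap. Its log2 fold change was -0.83 (limma adjusted p = 0.440), and -0.99 after scaling (adjusted p = 0.131). Dnal4, a small light chain of the outer arm type (identifier 54152, chromosome 15, 79761449 to 79774467), had 5.70, 4.94 and 5.84 FPKM in wild type against 9.91, 10.5 and 11.7 FPKM in SKO, also without overlap. Its log2 fold change was 0.85 (limma adjusted p = 0.374), and 0.70 after scaling (adjusted p = 0.246).

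Within a library the ratio of Dnal1 to Dnal4 was 4.99, 7.13 and 6.87 in wild type against 1.94, 1.53 and 1.86 in SKO. Dynlrb2, the roadblock-type light chain and the densest of the class, had 94.3, 97.5 and 154 FPKM in wild type against 92.1, 209 and 194 FPKM in SKO. Scaling gave a log2 fold change of 0.29 with a 95% interval of -0.30 to 0.88. Dnali1, an inner arm light chain, had 12.5 to 31.1 FPKM in wild type against 14.8 to 32.8 FPKM in SKO.

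The 250 bases upstream of the annotated start of a pair of members are shown because these genes stood on different sides of 0 after scaling while both carry matches to the half-site GTTGCC of the X-box, the element bound by RFX factors, which are known to act on cilium genes. The sequences are from RefSeq (GRCm38.p6, plus strand), written 5′ to 3′, and the capitals mark the match to GTTGCC in Dnah10 (chr5:124724835-124725084) and to a longer form in Dynlrb2, GTTNCC followed after 2 free bases by GNNAC (chr8:116504765-116505014).
Dnah10: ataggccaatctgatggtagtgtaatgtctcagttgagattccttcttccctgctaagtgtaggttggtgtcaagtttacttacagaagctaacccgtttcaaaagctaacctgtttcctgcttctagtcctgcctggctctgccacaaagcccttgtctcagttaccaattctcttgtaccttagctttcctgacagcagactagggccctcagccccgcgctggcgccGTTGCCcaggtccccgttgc
Dynlrb2: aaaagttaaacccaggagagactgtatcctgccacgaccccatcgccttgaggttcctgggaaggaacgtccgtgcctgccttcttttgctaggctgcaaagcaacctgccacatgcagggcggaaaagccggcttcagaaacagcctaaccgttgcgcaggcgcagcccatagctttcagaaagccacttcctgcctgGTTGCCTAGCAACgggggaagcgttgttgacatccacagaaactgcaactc

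The match in Dnah10 began 20 bases before the start and that in Dynlrb2 began 51 bases before it. Promoters were matched for 36 members by gene identifier. GTTGCC, searched on both strands over 250 bases, was present in 10 of the 36 (27.8%), against 12.0% of 17492 protein-coding genes. The 10 include Dnah7a, Dnah7b and Dnah7c, copies close in sequence that are each counted. The form with 2 free bases between GTTNCC and GNNAC was present in 4 (Dnah9, Dnaic1, Dnaic2 and Dynlrb2, 11.1%, against 1.49%), and that with 3 free bases in 6 (16.7%, against 2.19%). The cyclic AMP response element TGACGTCA was present in 2 (Dnah6 and Wdr63, 5.56%, against 2.20%) and CCAAT in 16 (44.4%, against 39.5%). These 5 are from 9 patterns searched after the values were known, and the GTTNCC forms overlap the half-site.

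The docking complex, which fixes outer arms to the doublet microtubules, held the 1 member past the test. Armc4, a core docking subunit, lies on chromosome 18 at 7088233 to 7298273 (identifier 74934). Its density was 108, 160 and 181 FPKM in wild type against 44.1, 85.8 and 77.6 FPKM in SKO. The lowest wild-type library stood above the highest SKO library, and the SKO mean of 69.2 ± 22.1 FPKM was 0.461 times the wild-type mean of 150 ± 37.5 FPKM (SD, n = 3 per group). The log2 fold change was -1.13 (SE 0.43, limma adjusted p = 0.385) with the deposited values. After scaling, the values were 133, 173 and 163 against 52.0, 65.5 and 72.2 FPKM, and the log2 fold change was -1.30 (SE 0.22, 95% interval -1.81 to -0.79, adjusted p = 0.0473). The call did not hold when any 1 of the 6 libraries was left out (adjusted p from 0.0929 to 0.201 after scaling), with the direction kept in each.

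The other docking proteins had overlapping groups with the deposited values. Ttc25 had 44.0, 45.2 and 72.2 FPKM in wild type against 26.3, 54.5 and 48.3 FPKM in SKO, with a scaled log2 fold change of -0.51 (limma adjusted p = 0.338) and no overlap after scaling. Ccdc151 had 12.9, 19.5 and 29.4 FPKM in wild type against 13.9, 39.6 and 33.9 FPKM in SKO, with a scaled value of 0.26 and a 95% interval of -0.48 to 1.00. Ccdc114 was low in both groups, at 3.13 to 6.61 and 4.68 to 6.38 FPKM, with a scaled interval of -0.61 to 0.63.

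Ratios of FPKM within a library do not change when the library is divided by 1 factor, as in TMM-type scaling. Quantile normalization can change them. The pairs given here were chosen after the values were seen, so they carry no test. Armc4 over Ccdc151 was 8.37, 8.25 and 6.15 in wild type against 3.18, 2.17 and 2.29 in SKO. Armc4 over Ttc25 was 2.46, 3.55 and 2.51 against 1.68, 1.57 and 1.61. For both docking pairs every SKO ratio lay below every wild-type ratio. Dnah12 over Dnah8 was 0.164, 0.182 and 0.237 in wild type against 0.0862, 0.0758 and 0.0785 in SKO. Summed inner arm over summed outer arm heavy chains was 0.841, 0.826 and 0.933 against 0.591, 0.512 and 0.499.

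**Figure D3:**
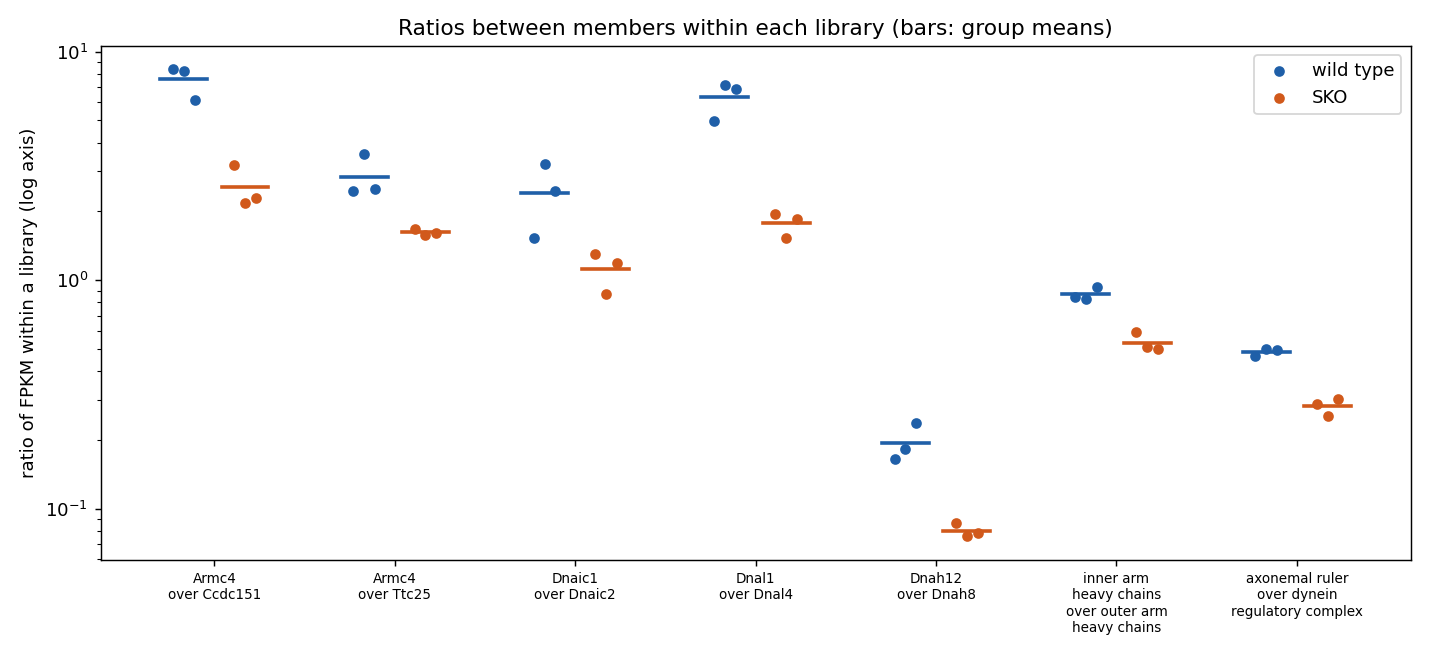
Ratios of FPKM within each library (log axis) for pairs of members or classes, with points for libraries and bars for group means. In each of the 7 ratios shown the 3 SKO libraries lie below the 3 wild-type libraries, for example 2.17 to 3.18 against 6.15 to 8.37 for Armc4 over Ccdc151. The ratios were chosen after the values were seen, so this separation is no test. Ccdc39 over Ccdc40, which overlapped between groups, is not shown.

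The ruler pair Ccdc39 and Ccdc40, coiled-coil proteins that set the repeat spacing of inner arms and the regulatory complex, had lower means in SKO. Ccdc39 had 66.4, 117 and 164 FPKM in wild type against 52.6, 93.5 and 83.3 FPKM in SKO, and Ccdc40 had 30.6, 38.2 and 38.9 FPKM against 17.6, 20.5 and 31.0 FPKM. In both genes the groups overlapped with the deposited values. After scaling every wild-type value lay above every SKO value in both, as it did in 9.85% of all rows. The scaled log2 fold changes were -0.71 (limma adjusted p = 0.252) and -0.81 (adjusted p = 0.185), so neither passed the test. Ccdc39 over Ccdc40 overlapped between groups, at 2.17, 3.08 and 4.22 against 2.99, 4.56 and 2.69.

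The dynein regulatory complex, which links neighbouring doublets and relays signals to the inner arms, had a class median lying 0.21 above the all-row median on the log2 scale. This direction was not stable, since the value was -0.057 without wild-type replicate 1 and -0.053 when the minimum mean was set to 5 FPKM. Its main scaffold gene Drc1 had 59.6, 124 and 157 FPKM in wild type against 106, 166 and 155 FPKM in SKO. Ccdc65, another core subunit, had 56.4, 76.6 and 101 FPKM in wild type against 68.6, 142 and 115 FPKM in SKO, with a scaled log2 fold change of 0.28 (95% interval -0.23 to 0.79). Drc7 had the lowest log2 fold change of the class, with 21.1, 35.3 and 64.8 FPKM against 19.1, 43.8 and 22.4 FPKM, with a scaled value of -0.61 (limma adjusted p = 0.437). Iqcg had 67.7 to 84.5 FPKM in wild type against 46.3 to 88.2 FPKM in SKO, and Tcte1 2.31 to 4.22 and 3.28 to 5.88 FPKM. All 5 had overlapping groups on both scales. Summed ruler over summed regulatory complex density was 0.468, 0.500 and 0.493 in wild type against 0.288, 0.256 and 0.301 in SKO.

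Of the 11 assembly factors, which fold and join heavy and intermediate chains in the cytoplasm, 8 lay below the all-row median and 3 above it. None had an unadjusted limma p under 0.05 on either scale. Over all rows 2.83% were lower and 8.15% higher at that p, and 6.71% and 8.9% after scaling. In Zmynd10 and Spag1 every wild-type value lay above every SKO value after scaling (18.2% of the class, against 9.85% of all rows). The scaled class median was -0.20. Dnaaf1, the densest in wild type, had 40.0, 58.1 and 90.3 FPKM there and 32.4, 75.6 and 54.7 FPKM in SKO. Zmynd10, a chaperone adaptor for heavy chains, had 33.3, 31.0 and 50.5 FPKM in wild type against 19.4, 40.3 and 33.4 FPKM in SKO, with a scaled log2 fold change of -0.49 (limma adjusted p = 0.356). Pih1d1, a subunit of the R2TP chaperone complex that also serves other cell types, had 30.3, 30.7 and 68.2 FPKM in wild type against 42.9, 98.0 and 74.1 FPKM in SKO. At 0.58, its scaled log2 fold change was the highest of the class (95% interval -0.09 to 1.25, limma adjusted p = 0.387). The remaining 8 factors had scaled values between -0.47 (Spag1) and 0.26 (Ccdc103).

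**Figure D4:**
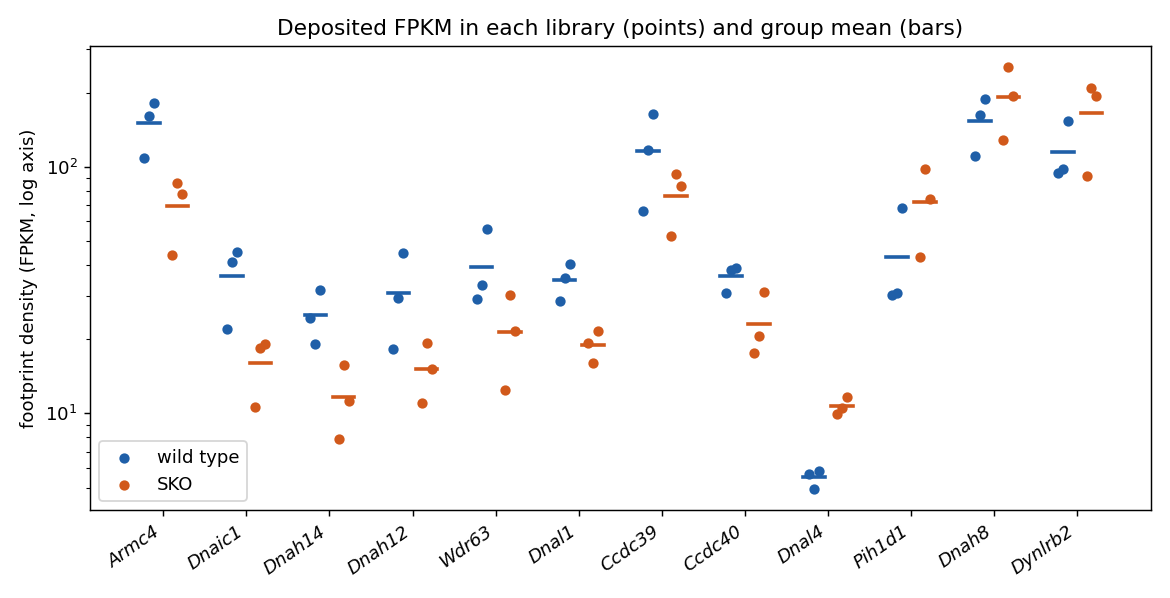
Deposited FPKM (log axis) of 12 members in each library, with points for libraries and bars for group means. Armc4, Dnaic1, Dnah14 and Dnal1 have every SKO point below every wild-type point, Dnal4 has every SKO point above, and the other 7 overlap.

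How many members passed depended on the scaling. Under quantile normalization, and under scaling to equal sums over protein-coding rows, 5 members fell (limma adjusted p under 0.05), namely Armc4, Dnaic1, Dnah12, Dnah14 and Wdr63, and none rose. These settings called 1.27% and 1.3% of all rows lower and 1.59% and 2.02% higher. Leaving out a library was not run under these settings.

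Other genes of the axonemal dynein pathway formed a list of further docking, tether, assembly and regulatory complex proteins. Of its 24 tested members 10 lay above 0 and 14 below 0 after scaling, and none passed the limma test on either scale. After scaling 3 were higher (12.5%, against 8.9% of all rows) and 4 lower (16.7%, against 6.71%) at an unadjusted limma p under 0.05. Every SKO value lay above every wild-type value in 3 (12.5%, against 11.6% of all rows), and the reverse held in 4 (16.7%, against 9.85%). The list's scaled median was -0.07. The densest were Enkur, at 175, 277 and 378 FPKM in wild type against 133, 258 and 208 FPKM in SKO, and Mns1, a protein inside the doublet microtubules, at 194, 192 and 338 FPKM against 116, 289 and 177 FPKM. Of the 26 tested genes of cytoplasmic dynein and dynactin, the motor that carries cargo inside the cell, none passed, and their scaled median was -0.06. At an unadjusted limma p under 0.05 after scaling, 7 (26.9%, against 6.71% of all rows) were lower and 3 (11.5%, against 8.9%) higher. With the deposited values 0 were lower (against 2.83% of all rows) and 2 higher (7.69%, against 8.15%) at that p. After scaling every wild-type value lay above every SKO value in 7, and the reverse held in 4 (15.4%, against 11.6% of all rows). The 7 lower genes include Dynlt1a, Dynlt1b, Dynlt1c and Dynlt1f, copies that may share reads. The scaled shares that were lower count each of these copies. They can be read beside the 25.6% and 34.9% of the axonemal members and the 6.71% and 9.85% of all rows. No difference between the lists was tested. The heavy chains Dync1h1 and Dync2h1 were among the 7 lower genes, with scaled log2 fold changes of -0.58 and -0.81 (limma adjusted p = 0.289 and 0.153). The densest of the 26 were Dynlt1b and Dynlt1c, at 120 to 229 and 99.4 to 223 FPKM in wild type. In SKO they had 65.4 to 144 and 49.0 to 120 FPKM. Of 11 tested regulators of cilium transcription none passed, and the densest, Crem and Rfx4, had 151 to 317 and 29.5 to 53.2 FPKM in wild type against 141 to 316 and 32.9 to 53.9 FPKM in SKO.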

How the data were processed

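The authors deposited FPKM for each gene symbol in 6 libraries; no count table was used. The submitters' processing notes name Cufflinks, STAR, Bowtie2 and cutadapt, and mm10 as build, without roles. How ribosomal RNA and multi-mapping reads were handled is not stated there. A row entered the test when its mean reached 1 FPKM (15578 rows, with 7192 left out). After a pseudocount of 1, log2 values of SKO and wild type were compared by limma 3.58.1 under R 4.3.3 (lmFit, then eBayes with trend). Tests were two-sided at an adjusted p of 0.05, Benjamini-Hochberg being applied to all tested rows. For TMM-type factors a share of 0.3 of log ratios and 0.05 of mean levels was trimmed from either side. Nothing beyond the design text says that replicates are separate mice, so p-values cover only the spread among these libraries, which may be technical.

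Gene identifiers and coordinates come from a RefSeq table of GRCm38, the assembly behind mm10, which matched 43 member rows by symbol and 1 by synonym. The members and lists were chosen with earlier results of these data known. Full values were given for Eif5a, for members past the test, and in each class for the densest and the most changed members; others were added for their role. The fit was also run on simulated data with independent noise in each row. No library-wide shift was simulated, so that run says nothing about the dependence on scaling. A planned count of proline runs needed protein sequences and was not run.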

Additional observations from a re-analysis of the deposited data

How the results depend on the processing

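The number of rows called over the whole table was 20. It was 4 with a pseudocount of 5, 5 with no filter, 86 with a mean of at least 5 FPKM, 159 with TMM-type scaling, 446 with quantile normalization, 517 with equal sums over protein-coding rows and 63 with robust eBayes. With 1 library left out it ran from 4 to 31, and with TMM-type scaling as well it was 8, 4, 10 and 13 without wild-type replicates 2 and 3 and SKO replicates 1 and 3, with 28 the highest. The number of members called was 0 and became 1 with TMM-type scaling and 5 with quantile normalization and with equal sums over protein-coding rows, and it was 0 with any library left out of the deposited or TMM-scaled values. The members' median relative to all rows stayed below 0 in all 24 alternatives, from -0.43 to -0.16, and Eif5a passed in all 24. With 1 library left out the inner arm median ran from -0.74 to -0.40, and from -0.75 to -0.46 with TMM-type scaling. That of the outer arm heavy chains ran from -0.52 to -0.078, and from -0.54 to -0.046 with scaling, where the last is without wild-type replicate 1. The median of the dynein regulatory complex ran from -0.057 to 0.27 (-0.071 to 0.26 with scaling) and that of the intermediate and light chains from -0.19 to 0.06 (-0.22 to 0.00079 with scaling). Signs turned, with no call, for Dnah7a, at -0.088 with TMM-type scaling, with and without the replicate block, -0.11 with quantile normalization, -0.11 with TPM and -0.14 with equal sums over protein-coding rows. With 1 library left out Dnah7a ran from -0.20 to 0.24, and with scaling its values below 0 were -0.18, -0.067, -0.038, -0.13 and -0.23. Dnah8 was at -0.079 with quantile normalization. With 1 library left out Drc1 ran from -0.0012 to 0.69 (-0.064 with scaling), Dnah3 from -0.53 to 0.13 and Dnaaf1 from -0.49 to 0.11. The cause of these shifts was not tested.

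Whether the replicate numbers of the titles pair the samples is not known. The correlations of same-numbered libraries' deviations from their group means were 0.157, -0.0127 and 0.0379. Those of differently numbered libraries ran from -0.172 to 0.133. With 3 libraries per group these values cannot settle the question. With the replicate block 5 rows passed, and 4 with TMM-type scaling as well, where Armc4 had an adjusted p of 0.102 (limma). With no counts, the number of reads behind a value is unknown, and values near 1 FPKM, such as those of Dnah9, are the least certain.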
